A study of Mus musculus with 44 samples.

Results

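Ovarian follicles of wild-type CD-1 mice, an outbred laboratory strain, were sequenced after exposure to PFNA (perfluorononanoic acid, a long-chain perfluoroalkyl acid) during gonadotropin-dependent maturation, the stage at which follicle growth depends on follicle-stimulating hormone (FSH). The libraries were chosen by their label, namely all 10 PFNA libraries and all 11 controls of the maturation window, which makes 21 of the 44 libraries of the series. Controls received the solvent DMSO, and both groups were wild type. The labels give neither the dose nor the length of exposure, nor the age of the mice, and do not say whether libraries came from separate animals or cultures, so the p-values measure only the spread between these libraries. Control replicate number 4 was not analysed here. The column of control replicate 6 carries a letter that differs from its label, and the effect of leaving that library out is given. The changes are described beyond the PPAR (peroxisome proliferator-activated receptor) targets, oocyte genes and cell-cycle genes that are usually listed for such samples, and the question was which other transcripts differed with PFNA.

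A growing follicle is an oocyte surrounded by granulosa cells, with a basement membrane and a layer of theca cells outside it. FSH acts on granulosa cells through the receptor Fshr and the second messenger cyclic AMP, and raises aromatase, inhibin subunits and cyclin D2. Granulosa cells also feed the oocyte, which takes up little glucose of its own, with the products of their glycolysis and with cholesterol precursors. PFNA resembles a fatty acid and is known to activate PPAR alpha.

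All values are TPM, a transcript level that is already divided by transcript length and scaled to a total of 1000000 in each library, so sequencing depth is unknown. Differences are given as log2 fold changes on log2(TPM + 1), PFNA minus control, which understate the change of low genes, and a gene was called at a limma adjusted p under 0.05. The labelled tissue was checked against cell markers. The granulosa marker Foxl2 lay between 905 and 1475 TPM in controls and between 748 and 1312 TPM with PFNA. It was the only granulosa marker of 6 that was not called, and the other 5 were called lower. The sum of the 6 was 27516 to 45348 TPM in controls (median 36271) and 12134 to 33456 TPM with PFNA (median 22466). Most of that sum was Inha, with medians of 34768 TPM in controls and 21444 TPM with PFNA. The sum of 6 oocyte markers, each of them called lower, was 77.1 to 125 TPM in controls and 0.268 to 1.96 TPM in PFNA replicates 3 to 9, while PFNA replicates 1, 2 and 10 held 85.1, 68.5 and 257 TPM. In bulk libraries, fewer cells of a type and less RNA per cell cannot be told apart. The summed markers of theca, endothelium, leukocytes and smooth muscle had overlapping ranges in both groups, but PFNA replicate 10 had the highest PFNA value of each (theca 878, endothelium 49.3, leukocytes 194, smooth muscle 95.4 TPM) and held 56.3 TPM of surface epithelium markers, against at most 0.316 TPM in the other PFNA libraries and up to 17 TPM in controls. No marker of these lists was at 0 in every library. Of the 3 blood markers only Alas2 was analysed, at no more than 1.55 TPM in any library.

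PFNA libraries differed in how far they moved. At least 2-fold changes were called in 4.77% of the genes tested, 3.81% lower and 0.963% higher. Of the 522 genes called at least 2-fold lower, PFNA replicate 1 was below every control for 106 and replicate 2 for 287, whereas replicates 3 to 9 were below for 451 to 490 and replicate 10 for 395. Of the 132 called at least 2-fold higher, replicates 1 and 2 were above every control for 68 and 53, and the others for 96 to 115. These counts describe the libraries and carry no test, because the calls include those libraries.

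The genes that mark this exposure here are Angptl4, Trib3, Drd4 and Fshr. Angptl4, a secreted inhibitor of lipoprotein lipase and a PPAR target, ranged from 69 to 108 TPM in controls (median 83.9) and from 280.03 to 437 TPM with PFNA (median 355). Trib3, a pseudokinase that binds the kinase Akt and is induced by the amino acid stress factor ATF4, ranged from 2.49 to 5.81 TPM in controls (median 4.27) and from 11.5 to 30.7 TPM with PFNA (median 18.3). Drd4, a dopamine receptor that lowers cyclic AMP, ranged from 14.1 to 42.6 TPM in controls (median 26.6) and from 0.77 to 8.0 TPM with PFNA (median 3.13). For each of these genes every PFNA library lay outside the control range, with log2 fold changes of 2.02 (SE 0.08), 1.92 (SE 0.17) and -2.76 (SE 0.23). Fshr, the FSH receptor, ranged from 4.93 to 9.82 TPM in controls (median 6.43) and from 0.736 to 3.4 TPM with PFNA (median 2.48). All 10 PFNA libraries were below the lowest control for Fshr (log2 fold change -1.24, SE 0.15, limma adjusted p = 7.4e-06). None of the 4 calls was lost in a setting that tested the gene, but Fshr, whose mean is under 5 TPM, was not tested when a mean of at least 5 TPM was required. In PFNA replicates 1 and 2 Fshr was at 2.7 and 3.11 TPM and Trib3 at 12.4 and 24.7 TPM, within the range of the other PFNA libraries. On GRCm38 Angptl4 lies at chr17:33773750-33781830, Trib3 at chr2:152337422-152344032, Drd4 at chr7:141292006-141296464 and Fshr at chr17:88984952-89200675, all protein-coding genes.

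**Figure D1:**
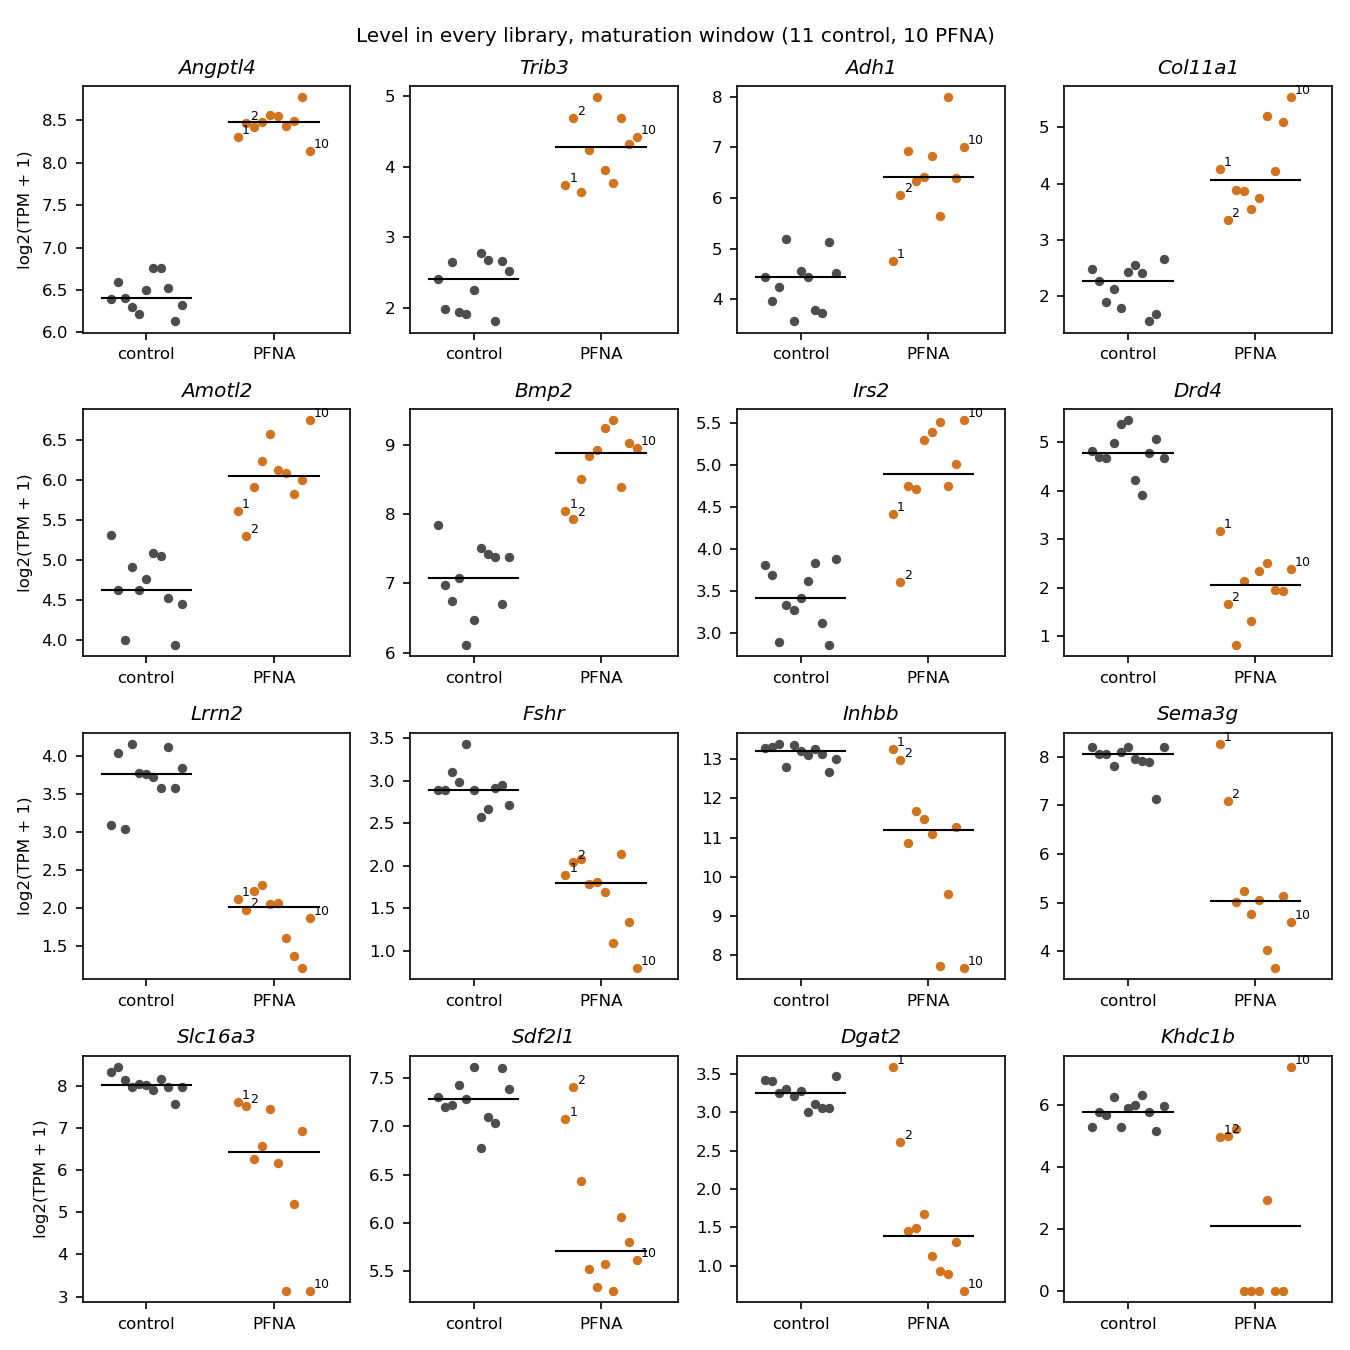
Level of 16 genes in every library of the maturation window as log2(TPM + 1) on the vertical axis, with 11 control and 10 PFNA libraries as points, the group median as a line and PFNA replicates 1, 2 and 10 numbered. All 10 PFNA libraries lie outside the control range for Angptl4, Trib3, Col11a1, Bmp2, Drd4, Lrrn2 and Fshr, whereas for Inhbb, Sdf2l1 and Dgat2 replicates 1 and 2 lie at or near the controls.

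Over all 13712 genes tested, 4030 were called, a background of 29.4%, with 13.3% called higher and 16.1% lower. The higher share of the calls was 45.3%, but after rescaling without mitochondrial-like genes 2725 were called higher and 1878 lower, and with the oocyte marker share as a covariate 2342 and 1866, so neither direction held the majority throughout. The 390 tested genes of the usual PPAR, oocyte and cell-cycle lists held 313 of the genes called lower and 26 of those called higher. Outside them, 1798 genes were called higher and 1893 lower among 13322, a share of 27.7%. Every PFNA library lay above every control for 67 genes (0.489% of those tested) and below every control for 108 (0.788%). Of these, 61 and 89 were outside the usual lists.

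**Figure D2:**
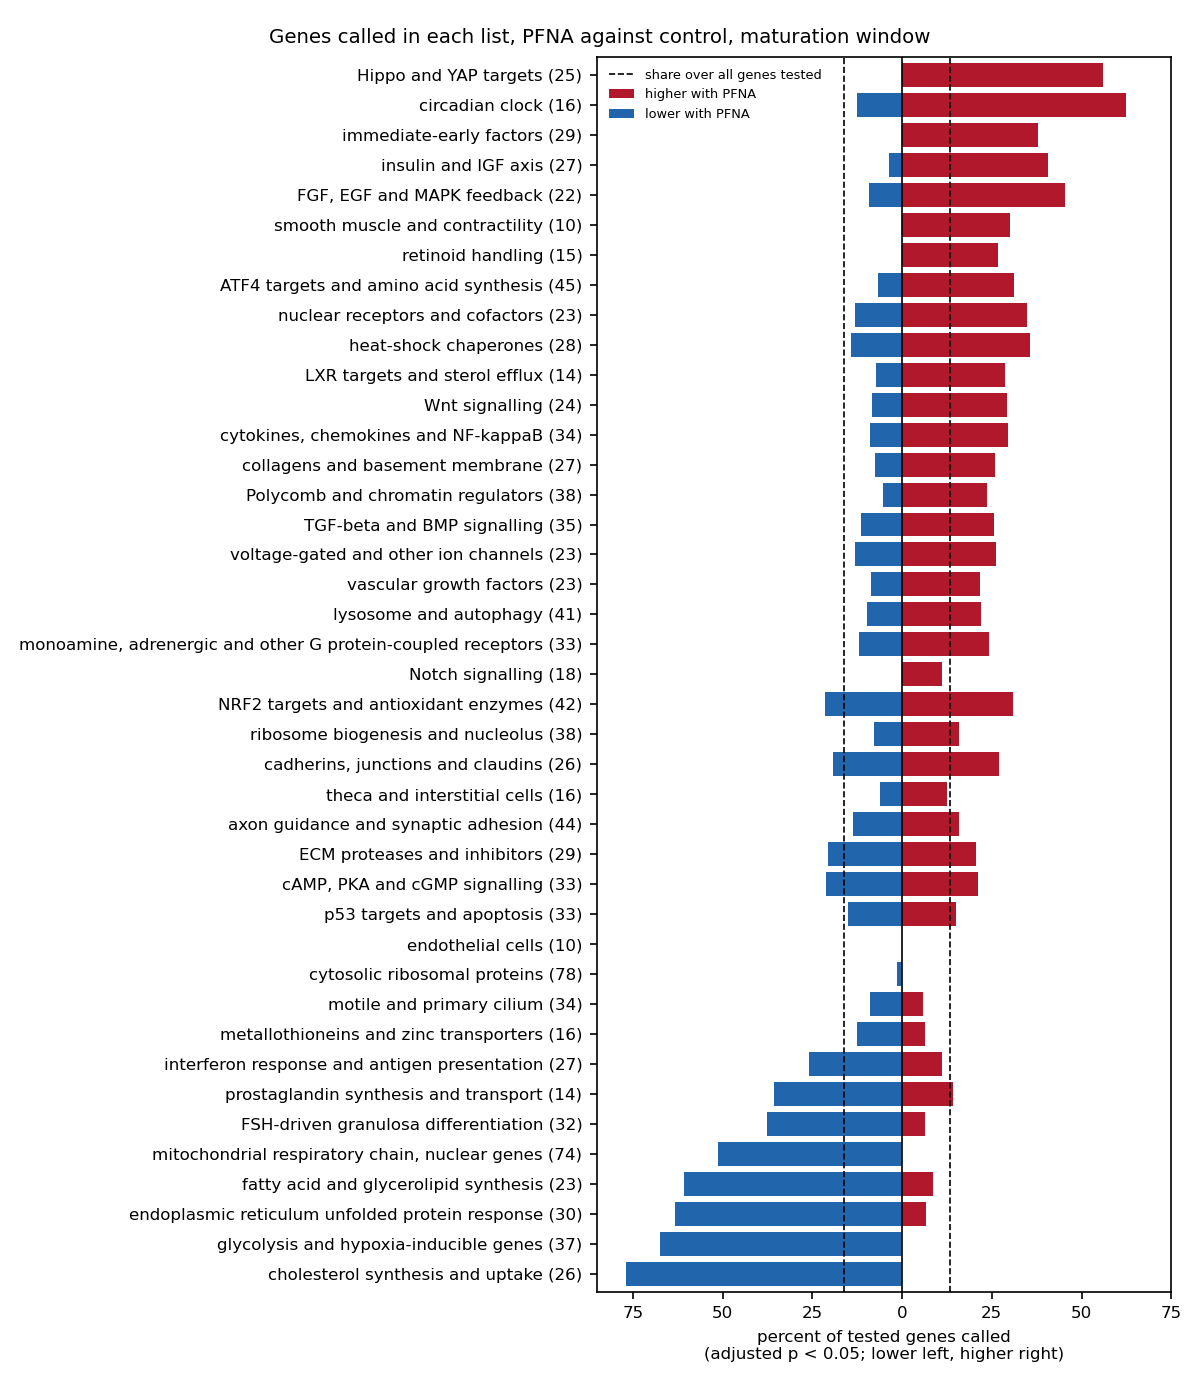
Share of the tested genes of each list with 10 or more that were called at an adjusted p under 0.05, in percent, with genes lower with PFNA to the left and higher to the right. The number tested is in brackets and the dashed lines are the shares over all genes tested (16.1% lower and 13.3% higher). Cholesterol synthesis, glycolysis, endoplasmic reticulum, fatty acid synthesis and respiratory chain genes extend left, and circadian clock and Hippo genes extend right.

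Most genes of glucose metabolism were called lower with PFNA. Of 37 tested genes of glycolysis and of the hypoxia-inducible set that includes it, 25 were called lower by limma and 0 higher (0 higher at an unadjusted p under 0.05), with a median log2 fold change of -0.58 against 0.02 over all genes tested. The PFNA libraries were uneven. The list score, which is the mean over tested members of log2(TPM + 1) minus its control mean, was -0.44 to 0.22 in controls and below that range in 6 of 10 PFNA libraries, at -0.93 to -1.22 in replicates 7, 8 and 10 and at 0.12 in replicate 5. Genes from glucose entry to lactate export were among those called lower. Slc2a1, the glucose transporter GLUT1, ranged from 22.9 to 43.2 TPM in controls (median 28.3) and from 10.8 to 35.9 TPM with PFNA (median 17.1). Tpi1, triosephosphate isomerase, ranged from 1879.7 to 2639 TPM in controls (median 2409) and from 397 to 1793 TPM with PFNA (median 1216), and Pgam1, phosphoglycerate mutase, ranged from 655 to 974 TPM in controls (median 855) and from 265 to 619.5 TPM with PFNA (median 495). For Tpi1 and Pgam1 every PFNA library was below every control, and for Slc2a1 7 of 10 were. Ldha, which makes lactate from pyruvate, ranged from 670.2 to 988 TPM in controls (median 861) and from 149 to 686 TPM with PFNA (median 458). Slc16a3, the lactate exporter MCT4, ranged from 189.9 to 348 TPM in controls (median 259) and from 7.74 to 195 TPM with PFNA (median 84.7). For Slc16a3 9 of 10 PFNA libraries were below the lowest control, and replicates 7 and 10 were far below the rest at 7.74 and 7.78 TPM.

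The limma log2 fold changes along this pathway were -0.68 for Slc2a1, -0.53 for Hk2, -0.80 for Pfkl, -1.12 for Tpi1 (SE 0.22, adjusted p = 5.9e-04), -0.91 for Pgk1, -0.88 for Pgam1 (SE 0.12, adjusted p = 2.8e-05), -0.93 for Pkm and -1.06 for Ldha (SE 0.23, adjusted p = 0.0016). Slc16a3 had -2.05 (SE 0.48, adjusted p = 0.003). The isoforms Hk1, Pfkm and Ldhb of the same reactions had log2 fold changes of 0.06, 0.04 and -0.03 and were not called. The hypoxia-inducible genes outside the pathway were divided. Bnip3, which directs mitochondria to autophagy, fell by 0.97 and Pdk1, a kinase that inhibits pyruvate dehydrogenase, by 0.77 on the log2 scale, while Vegfa (-0.41, adjusted p = 0.21) and Adm (0.62, adjusted p = 0.2) were not called. Hk2 lost its call without PFNA replicates 1, 2 and 10 (adjusted p = 0.065), Eno1 without any one of control replicates 1, 2, 3, 5, 6, 7, 9, 10 or 12 or PFNA replicates 7 or 8 (limma adjusted p up to 0.082) and the lactate and pyruvate transporter Slc16a1 without any one of control replicates 1, 2, 3, 5 or 6 or PFNA replicates 7, 8 or 10 (limma adjusted p up to 0.071). Several of these genes, Tpi1, Gapdh, Pgk1 and Eno1 among them, have processed pseudogenes with which reads may be shared.

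**Figure D3:**
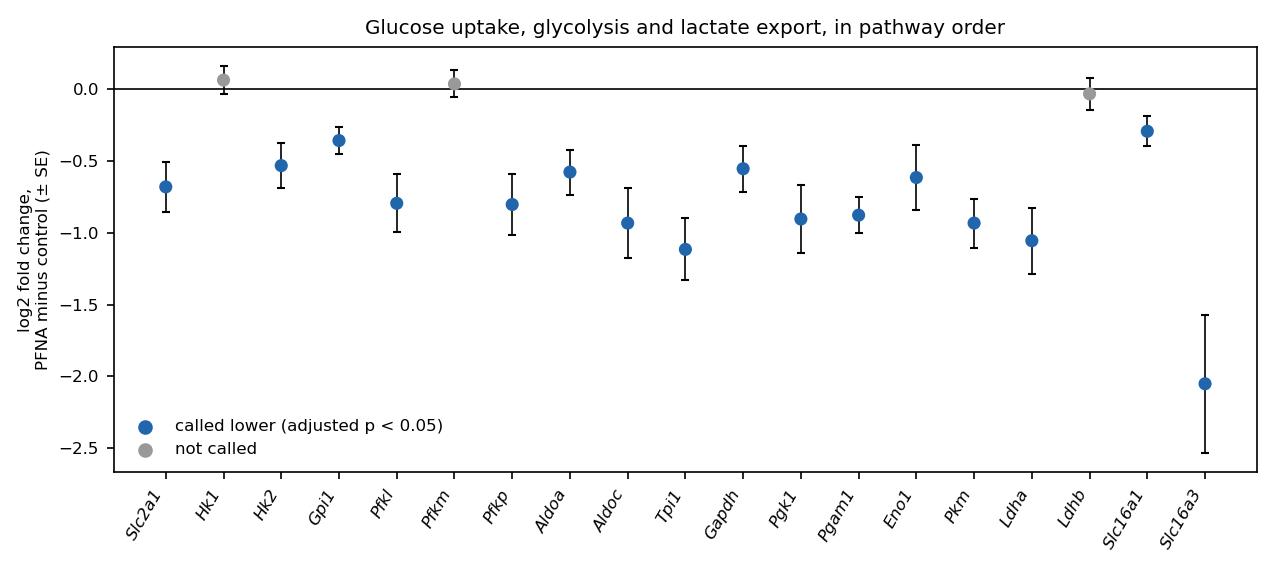
Log2 fold change, PFNA minus control, with its SE as bars, for genes of glucose uptake, glycolysis and lactate export in pathway order. The points from Slc2a1 to Slc16a3 lie below 0 except Hk1 and Pfkm, and grey points (Hk1, Pfkm, Ldhb) were not called.

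The Ldha promoter is shown because the hypoxia response core ACGTG (searched on both strands as ACGTG and CACGT, which overlap in CACGTG) was frequent upstream of these genes. It was found in the 250 bases before the start of 19 of 35 list genes with a RefSeq promoter, a share of 54.3%. The share over all 27025 genes with such a window was 18.5%. Known hypoxia-inducible genes were chosen for the list, so the difference between these shares says nothing about PFNA. Among the 24 called genes 14 held the core, a share similar to that of the list, and its relation to the calls was not tested. Ldha has 2 RefSeq promoters, of which 1 is given. The Ldha window lies at chr7:46845554-46845803 (GRCm38.p6, plus strand) and is given 5′ to 3′, with capitals at the core.
Ldha: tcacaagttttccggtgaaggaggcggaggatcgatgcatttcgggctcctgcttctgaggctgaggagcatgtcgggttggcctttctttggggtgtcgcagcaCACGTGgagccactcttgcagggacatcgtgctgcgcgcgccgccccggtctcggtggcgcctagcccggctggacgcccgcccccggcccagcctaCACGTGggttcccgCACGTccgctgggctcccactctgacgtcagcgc

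Nuclear genes of the mitochondrial respiratory chain were lower by smaller amounts. Of 74 tested, 38 were called lower by limma and 0 higher (0 at an unadjusted p under 0.05), and the median was -0.25. Cycs, the electron carrier cytochrome c, ranged from 237 to 302 TPM in controls (median 266) and from 145 to 232 TPM with PFNA (median 171). Every PFNA library was below every control for Cycs (log2 fold change -0.62, SE 0.08, limma adjusted p = 1.1e-05). Ndufs4 and Ndufs8, subunits of complex I, had log2 fold changes of -0.58 and -0.54, and 8 of 10 PFNA libraries were below every control for each. The mitochondrial-like genes, 7 genes that resemble mitochondrial DNA in sequence, took 14.9% to 20.3% of TPM in controls (median 17.4%) and 17.6% to 23% with PFNA (median 21.1%). Since TPM values share 1 total, the libraries were also rescaled without them, after which 30 respiratory chain genes were called lower.

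Genes of sterol and fatty acid synthesis were also lower. Of 26 tested cholesterol genes 20 were called lower by limma and 0 higher (0 at an unadjusted p under 0.05), with a median of -0.42. Mvk, a kinase of the mevalonate pathway, ranged from 48.9 to 81.1 TPM in controls (median 67.1) and from 14.4 to 55.2 TPM with PFNA (median 25.2), a difference of -1.22 (SE 0.18, limma adjusted p = 4.7e-05), and Mvd, of the same pathway, had -1.04. Hmgcs1, an early step of that pathway, had -0.01 and was not called. Of 23 genes of fatty acid and glycerolipid synthesis 14 were called lower and 2 higher (median -0.30). Dgat2, which makes the last step to triglyceride, ranged from 6.98 to 10.1 TPM in controls (median 8.51) and from 0.591 to 11 TPM with PFNA (median 1.61). For Dgat2 9 of 10 PFNA libraries were below every control and replicate 1 was above every control at 11 TPM. The difference was -1.65 (SE 0.26, limma adjusted p = 8.0e-05).

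Within lipid synthesis the genes called higher were Me1, malic enzyme (0.53), and Gpam, the acyltransferase that starts glycerolipid synthesis (0.35), whose call was lost with the oocyte marker share as a covariate (adjusted p = 0.065). Acacb, the acetyl-CoA carboxylase of the mitochondrial surface, fell by 1.21, Fasn, the fatty acid synthase, by 0.45 and Srebf1, the regulator of these genes, by 0.48 on the log2 scale. The liver X receptors respond to oxysterols and drive sterol efflux. Of 14 genes of these receptors, their targets and sterol efflux, 4 were called higher and 1 lower. The 1 lower was the receptor Nr1h2 (-0.19), a call lost after rescaling without mitochondrial-like genes (limma adjusted p = 0.072). Apoe, the apolipoprotein that carries lipid out of cells, ranged from 75.3 to 437 TPM in controls (median 297) and from 248 to 1461 TPM with PFNA (median 486). The groups overlapped for Apoe, with 7 of 10 PFNA libraries above every control (log2 fold change 1.01, SE 0.33, limma adjusted p = 0.023), and for the efflux pump Abca1 6 of 10 were above (log2 fold change 0.72). Apoe is also made by macrophages, and the leukocyte markers C1qa and Cd68 were called higher, with log2 fold changes of 1.37 and 0.79. The call of C1qa was lost without any one of control replicates 1, 3, 5, 6 or 11 or PFNA replicates 4, 5, 6, 7, 8, 9 or 10 (limma adjusted p up to 0.082), and that of Cd68 without any one of control replicates 1, 2, 3, 5, 6, 9 or 12 or PFNA replicates 4, 5, 7, 8, 9 or 10 (limma adjusted p up to 0.082). Their part in the Apoe result was not tested.

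The chaperones of the endoplasmic reticulum were lower. Of 30 tested genes of its unfolded protein response 19 were called lower and 2 higher, with a median of -0.32. PFNA replicates 3 to 10 had a list score of -0.46 to -0.32, below the control range of -0.14 to 0.10, and replicates 1 and 2 had -0.13 and -0.12. Sdf2l1, a cofactor of the chaperone BiP, ranged from 109 to 195 TPM in controls (median 155) and from 38.1 to 168 TPM with PFNA (median 51.4). Hspa5, which encodes BiP, ranged from 2469.8 to 3327 TPM in controls (median 2949) and from 1497 to 2890.01 TPM with PFNA (median 1966), and Calr, the lectin chaperone calreticulin, ranged from 1693 to 2232 TPM in controls (median 1936) and from 1026 to 1663 TPM with PFNA (median 1348). Every PFNA library was below every control for Calr and 8 of 10 for Sdf2l1 and Hspa5. Their limma log2 fold changes were -1.26 (SE 0.22, adjusted p = 2.4e-04), -0.50 (SE 0.10, adjusted p = 7.0e-04) and -0.51 (SE 0.08, adjusted p = 5.1e-05).

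Wfs1, a membrane protein of the endoplasmic reticulum, ranged from 31.9 to 44.8 TPM in controls (median 38.9) and from 14 to 29.7 TPM with PFNA (median 19), and no PFNA library reached the control range (-0.95, SE 0.11, limma adjusted p = 5.5e-06). Creld2 and Manf, secreted proteins induced by unfolded protein, fell by 0.86 and 0.76, and the sensor Ern1 by 0.44 on the log2 scale. Ern1 lost its call with the oocyte marker share as a covariate (adjusted p = 0.12). The members called higher were Crebrf (0.45), a negative regulator of this response, and the sensor Atf6 (0.28), whose call was lost without any one of control replicates 6, 7, 11 or 12 or PFNA replicates 3, 4, 5, 6, 7, 8, 9 or 10 (limma adjusted p up to 0.072). Atf6 was also not called with the oocyte marker share as a covariate (limma adjusted p = 0.086). Herpud1 (0.20) and Dnajb9 (-0.11) were not called. Ero1l, a disulfide-forming oxidase that also belongs to the hypoxia-inducible list, had -0.78.

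The promoters of Hspa5, Calr and Creld2 are shown because they hold a known element, which was in 8 of the 17 called genes of this list with a window. The endoplasmic reticulum stress element, searched on both strands as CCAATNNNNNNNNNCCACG, was in the 250 upstream bases of 9 of 24 list genes with a RefSeq window (Hspa5, Hsp90b1, Calr, Canx, Pdia6, Dnajc3, Creld2, Syvn1 and Derl3), a share of 37.5%, against 0.13% of all genes with such a window. Of these 9, Derl3 was the one not called, and the other 8 were called lower. Known genes of this response were chosen for the list, so its excess over all genes says nothing about PFNA. Whether the element goes with the calls was not tested. The windows lie at chr2:34771840-34772089 (plus strand), chr8:84846932-84847181 (minus strand) and chr15:88819396-88819645 (plus strand) on GRCm38.p6, each ends at the base before the transcript start, and capitals mark the element, which begins 65, 162 and 126 bases upstream.
Hspa5: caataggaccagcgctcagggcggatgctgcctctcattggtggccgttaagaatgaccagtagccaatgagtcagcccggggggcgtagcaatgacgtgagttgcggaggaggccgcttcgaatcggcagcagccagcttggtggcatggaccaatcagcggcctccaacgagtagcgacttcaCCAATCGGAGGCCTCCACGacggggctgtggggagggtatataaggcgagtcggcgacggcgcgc
Calr: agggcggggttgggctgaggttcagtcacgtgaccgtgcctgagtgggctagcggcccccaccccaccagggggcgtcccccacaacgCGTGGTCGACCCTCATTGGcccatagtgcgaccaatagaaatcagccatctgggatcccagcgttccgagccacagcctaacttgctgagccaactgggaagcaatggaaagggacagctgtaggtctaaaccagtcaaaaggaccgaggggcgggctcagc
Creld2: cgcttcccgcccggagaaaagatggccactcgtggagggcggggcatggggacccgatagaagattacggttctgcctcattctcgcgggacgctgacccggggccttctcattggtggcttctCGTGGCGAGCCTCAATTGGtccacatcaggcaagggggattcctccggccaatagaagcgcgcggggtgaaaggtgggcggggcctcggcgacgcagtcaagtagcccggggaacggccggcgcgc

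Other stress lists did not follow the endoplasmic reticulum. Of 28 cytosolic heat-shock chaperones and their partners, 10 were called higher and 4 lower. Hspa1a, an inducible 70 kDa heat-shock protein, ranged from 176 to 1182 TPM in controls (median 446) and from 451 to 4023 TPM with PFNA (median 2153), and its neighbour Hspa1b ranged from 281 to 1926 TPM in controls (median 1035) and from 639.5 to 7015 TPM with PFNA (median 4497). For each of the pair 9 of 10 PFNA libraries were above every control (log2 fold changes 2.15 and 2.12, SE 0.34 and 0.38, limma adjusted p = 9.5e-05 and 2.8e-04). Their coding sequences are almost the same, so each of the pair may hold reads of the other. The small heat-shock protein Hspb1 had 0.98 and the cochaperone Dnajb1 0.85, while the members called lower were Fkbp4, Stip1, Tcp1 and Cct3, partners of Hsp90 and subunits of the cytosolic folding ring, by at most 0.30 on the log2 scale. With the oocyte marker share as a covariate the number called lower was 1.

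Of 45 tested ATF4 targets and amino acid enzymes 14 were called higher and 3 lower, with a median of 0.08. Asns, asparagine synthetase, ranged from 7.33 to 11.5 TPM in controls (median 8.53) and from 12.1 to 27.6 TPM with PFNA (median 15.9). All 10 PFNA libraries were above every control for Asns (0.89, SE 0.12, limma adjusted p = 2.4e-05). Atf5, an ATF4-induced transcription factor, ranged from 46.9 to 141 TPM in controls (median 81.7) and from 131 to 255 TPM with PFNA (median 181), with 9 of 10 above every control (1.18, adjusted p = 3.0e-05). The amino acid transporters Slc7a3 (1.42), Slc1a4 (0.86) and Slc7a1 (0.46) were higher, whereas Slc3a2 (-0.77), the shared heavy chain of several exchangers, the mitochondrial serine enzyme Shmt2 (-0.85) and Cth (-0.44), which makes cysteine, were lower. Slc7a8, a light chain that pairs with Slc3a2 and is outside the list, ranged from 50.9 to 102 TPM in controls (median 80.3) and from 16.5 to 44.2 TPM with PFNA (median 26.3), and every PFNA library was below every control (-1.40, SE 0.16, limma adjusted p = 5.1e-06). Psat1 (0.20) and Atf4 itself (0.00) were not called. Without PFNA replicates 1 and 2 the number called lower rose from 3 to 8, and without control replicate 11, PFNA replicate 1 or PFNA replicate 2 alone it was 5, 6 or 5.

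The C/EBP-ATF element, searched on both strands as TGATGNAAN, was in the upstream window of 12 of 38 genes of the ATF4 list. That is a share of 31.6%, against 3.89% of all genes. Known ATF4 targets were chosen for this list, so the excess says nothing about PFNA. Among the 13 called genes 4 held the element, a share similar to that of the list, and its relation to the calls was not tested. The window of Asns is shown because it holds this element and every PFNA library was above every control for that gene. It lies at chr6:7693210-7693459 (GRCm38.p6, minus strand) and the element, in capitals, begins 23 bases upstream.
Asns: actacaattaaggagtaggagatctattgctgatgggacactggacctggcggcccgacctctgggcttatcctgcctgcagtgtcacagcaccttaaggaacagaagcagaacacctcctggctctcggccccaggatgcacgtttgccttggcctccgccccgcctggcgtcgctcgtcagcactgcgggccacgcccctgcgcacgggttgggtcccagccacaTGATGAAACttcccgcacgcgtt

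Among 42 targets of NRF2, the sensor of oxidants, and other antioxidant enzymes 13 were called higher and 9 lower. These shares were 31% and 21.4%, against 13.3% higher and 16.1% lower over all genes tested. Gstt1, a glutathione transferase, rose (1.27), as did Osgin1 (0.86) and Gclc (0.60), the catalytic subunit for glutathione synthesis. Gpx4, the peroxidase that repairs oxidised membrane lipid, ranged from 196 to 256 TPM in controls (median 234) and from 91.1 to 205 TPM with PFNA (median 117). For Gpx4 8 of 10 PFNA libraries were below every control (-0.87, SE 0.12, limma adjusted p = 1.9e-05), and Gsta4, a glutathione transferase for lipid aldehydes, fell by 0.70 on the log2 scale. Hmox1 (0.06) and Nqo1 (-0.04), the usual markers of NRF2, were not called.

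Genes of the Hippo pathway, which restrains growth through the coactivators YAP and TAZ, were higher. Of 25 tested 14 were called higher by limma and 0 lower (1 at an unadjusted p under 0.05), with a median of 0.39. Ajuba, a scaffold that holds the kinase Lats at junctions, ranged from 11.2 to 30.8 TPM in controls (median 16) and from 31.5 to 75.8 TPM with PFNA (median 49.5). Amotl2, a junction protein that binds YAP, ranged from 14.4 to 38.8 TPM in controls (median 23.7) and from 38.6 to 107 TPM with PFNA (median 65.4). Every PFNA library was above every control for Ajuba and 9 of 10 for Amotl2 (log2 fold changes 1.49 and 1.38, SE 0.17 and 0.18, limma adjusted p = 4.4e-06 and 1.3e-05). Ccn1, a secreted matrix protein and YAP target, ranged from 42.6 to 374 TPM in controls (median 168) and from 259.6 to 1801 TPM with PFNA (median 436), with 7 of 10 above every control and replicate 5 far above the rest (1.77, SE 0.40, adjusted p = 0.0023). The kinase Lats2, itself a target, had 0.68 and the factors Tead1 and Tead2 0.52 and 0.52. Ccn2, another matrix protein and YAP target, had 0.47, a call lost without PFNA replicate 9 (adjusted p = 0.053). With the oocyte marker share as a covariate Ccn2 was not called either (adjusted p = 0.086). Yap1 (0.01) and Lats1 (0.16) were not called.

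The TEAD element GGAATG, searched on both strands, was in the upstream window of 13 of 23 Hippo genes. That is a share of 56.5%, against 14.4% of all genes. Known YAP targets were among the genes chosen for this list, so the excess says nothing about PFNA. The element was in 9 of the 12 called genes, and its relation to the calls was not tested. The windows of Ccn1 and Amotl2 are shown, each with the element read on the opposite strand, in capitals, beginning 103 and 65 bases upstream. They lie at chr3:145649986-145650235 (minus strand) and chr9:102717554-102717803 (plus strand) on GRCm38.p6.
Ccn1: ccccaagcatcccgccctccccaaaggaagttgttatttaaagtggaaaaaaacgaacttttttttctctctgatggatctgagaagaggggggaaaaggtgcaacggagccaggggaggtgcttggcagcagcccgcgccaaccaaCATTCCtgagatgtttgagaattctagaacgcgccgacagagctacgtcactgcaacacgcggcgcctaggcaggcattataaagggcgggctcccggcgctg
Amotl2: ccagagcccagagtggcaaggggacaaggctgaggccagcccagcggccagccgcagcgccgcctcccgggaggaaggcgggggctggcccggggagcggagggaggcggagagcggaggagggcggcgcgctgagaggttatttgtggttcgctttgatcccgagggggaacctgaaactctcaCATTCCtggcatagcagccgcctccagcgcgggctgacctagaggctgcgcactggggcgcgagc

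Immediate-early factors, which are transcribed within minutes of a signal, had 11 of 29 members called higher by limma and 0 lower (0 at an unadjusted p under 0.05), with a median of 0.44. Without control replicates 6 or 7 or PFNA replicates 5 or 6 the number fell to 7, and with the oocyte marker share as a covariate to 6. Jun ranged from 777 to 2652 TPM in controls (median 1397) and from 1249 to 6634 TPM with PFNA (median 2848). The groups overlapped for Jun, with 5 of 10 PFNA libraries above every control (0.97, SE 0.28, limma adjusted p = 0.013), and the call was lost with that covariate (adjusted p = 0.082). Arc, a gene known from neurons, had 1.27, with 8 of 10 above. Klf2, a factor best known from vessels, ranged from 33.3 to 103 TPM in controls (median 67.4) and from 87.8 to 270.4 TPM with PFNA (median 142), with 8 of 10 above (1.23, adjusted p = 1.3e-04). Klf6 (1.11) and Myc (1.08) were higher with 5 and 7 of 10 above. Fos had 0.80 and was not called (adjusted p = 0.19). The list score ranged from -0.80 to 0.73 in controls, and 2 of 10 PFNA libraries lay above that range. PFNA replicate 5 had the highest, 1.84, and replicates 7, 8 and 9 had -0.01, -0.10 and -0.01, near the control mean.

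Of 22 genes of FGF and EGF (growth factor) signalling and of MAP kinase feedback, 10 were called higher and 2 lower. When a mean of at least 5 TPM was required, which left fewer genes to test, 6 were called higher. Dusp6, a phosphatase of ERK, ranged from 18.7 to 48.8 TPM in controls (median 31.3) and from 41.8 to 117 TPM with PFNA (median 65.7). The inhibitor Spry1 ranged from 5.84 to 25.1 TPM in controls (median 16.2) and from 19.5 to 43.8 TPM with PFNA (median 32.3). For each, 9 of 10 PFNA libraries were above every control (1.09 and 0.99, SE 0.18 and 0.20, limma adjusted p = 1.0e-04 and 7.1e-04). Fgfbp3, a secreted carrier of fibroblast growth factors, ranged from 110.3 to 219.9 TPM in controls (median 134) and from 15.1 to 80.9 TPM with PFNA (median 25), and every PFNA library was below every control (-2.32, SE 0.23, limma adjusted p = 1.3e-06). Dusp4, a related phosphatase, rose by 1.31 on the log2 scale, with 9 of 10 above. The receptor Fgfr4, at a control median of 3.1 TPM, had -1.17.

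In the TGF-beta and BMP family, a ligand and an inhibitor moved in opposite directions. Bmp2, a bone morphogenetic protein made by granulosa cells, ranged from 68.3 to 228 TPM in controls (median 134) and from 244 to 651 TPM with PFNA (median 471). No PFNA library overlapped the controls for Bmp2 (1.66, SE 0.21, limma adjusted p = 1.0e-05). Grem1, which binds and blocks BMPs, ranged from 228 to 572 TPM in controls (median 329) and from 13.7 to 325 TPM with PFNA (median 133). For Grem1 8 of 10 PFNA libraries were below every control (-1.75, SE 0.43, limma adjusted p = 0.0042). Grem1 is induced in cumulus cells by the oocyte, whose summed markers were below every control in 7 of those 8 libraries. In replicate 10, where Grem1 was at 19.3 TPM, they were above every control. Grem1 kept its call with the oocyte marker share as a covariate, and the cause of its fall was not tested. Smad6 (1.15), Smad7 (1.08) and Id2 (0.89), which BMP signals induce, were called higher, while Id1 (0.35) and Id3 (0.09) were not. In all, 9 of 35 tested members were called higher and 4 lower, the lower ones including Bmp3 (-0.77) and Tgfb3 (-0.78). These shares were 25.7% and 11.4%, against 13.3% higher and 16.1% lower over all genes tested.

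Genes of insulin and insulin-like growth factor signalling were higher, 11 of 27 called higher and 1 lower, with a median of 0.25. Irs2, an adaptor of the insulin receptor, ranged from 6.26 to 13.8 TPM in controls (median 9.64) and from 11.2 to 45.3 TPM with PFNA (median 28.6). Grb14, which inhibits that receptor, ranged from 15.6 to 28.7 TPM in controls (median 20.6) and from 35.9 to 74.5 TPM with PFNA (median 51.7). Pik3ip1, an inhibitor of PI3 kinase, ranged from 7.6 to 28.2 TPM in controls (median 16.2) and from 21.3 to 119.6 TPM with PFNA (median 43.2). All 10 PFNA libraries were above every control for Grb14 and 9 of 10 for Irs2 and Pik3ip1 (log2 fold changes 1.32, 1.47 and 1.69, SE 0.13, 0.20 and 0.27, limma adjusted p = 8.9e-07, 2.4e-05 and 1.1e-04). Irs2, Sesn3 (0.94), Pik3ip1 and Pik3r1 (0.76) are known targets of the factor Foxo1, whose own transcript had 0.31. The receptor Insr (0.11) was not called. Igf2r (-0.39), which clears IGF2 and was the one member called lower, lost its call without any one of control replicates 1, 2, 3, 5, 6, 8, 9, 10 or 12 or PFNA replicates 1, 2, 7, 8, 9 or 10 (limma adjusted p up to 0.086). Igf2r was also not called without PFNA replicates 1, 2 and 10 (limma adjusted p = 0.18).

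In a list of granulosa differentiation genes, not all of which FSH raises, 12 of 32 were called lower and 2 higher (median -0.29). The sum of 6 granulosa markers, of which 5 were called lower, was 27516 to 45348 TPM in controls and 12134 to 33456 TPM with PFNA. Most of it was Inha, which is described below as lower, so the sum is no separate measure of granulosa cells. Foxl2, the marker not called, had a median of 1147 TPM in controls and 1004 TPM with PFNA. The part of granulosa cell content in these falls was not tested. Inhbb, the beta B subunit of inhibin and activin, ranged from 6575 to 10799 TPM in controls (median 9571) and from 203 to 9868 TPM with PFNA (median 2327). For Inhbb 8 of 10 PFNA libraries were below every control, replicates 1 and 2 were in the control range at 9868 and 8039.8 TPM, and replicates 7 and 10 were lowest at 209 and 203 TPM (-2.39, SE 0.55, limma adjusted p = 0.0026). Inha, the alpha subunit of inhibin, ranged from 26233 to 43694 TPM in controls (median 34768) and from 11169 to 32189.8 TPM with PFNA (median 21444), with 8 of 10 below every control (-0.74, adjusted p = 6.3e-04). Ccnd2, cyclin D2, ranged from 78.5 to 166 TPM in controls (median 136) and from 18.6 to 120.1 TPM with PFNA (median 25.1), with 9 of 10 below (-2.0, SE 0.25, adjusted p = 1.0e-05).

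Aromatase, Cyp19a1, which makes oestradiol, ranged from 17.2 to 30.6 TPM in controls (median 21.9) and from 4.07 to 19.7 TPM with PFNA (median 12.9), and Hsd17b1, which acts in the same route, ranged from 3600.3 to 5487 TPM in controls (median 4516) and from 914 to 4761 TPM with PFNA (median 3073). For each, 8 of 10 PFNA libraries were below every control (-0.98 and -0.72, limma adjusted p = 0.0018 and 0.012). Hsd11b2, which inactivates corticosterone, ranged from 234 to 425 TPM in controls (median 279.7) and from 61.6 to 387 TPM with PFNA (median 96.3), also with 8 of 10 below (-1.38, SE 0.25, adjusted p = 3.1e-04). The C-type natriuretic peptide Nppc, which holds the oocyte in meiotic arrest, had -0.78 and its receptor Npr2 -0.59. Amh, anti-Müllerian hormone, had -1.81, a call lost without any one of control replicates 8, 9, 10 or 12 or PFNA replicates 4, 5, 6 or 8 (limma adjusted p up to 0.063). Amh was also not called without PFNA replicates 1 and 2 (limma adjusted p = 0.069) or with the oocyte marker share as a covariate (0.19). The members called higher were Nrip1, a nuclear receptor corepressor (0.44), and Esr2, oestrogen receptor beta (0.31), whose call was lost without any one of control replicates 5, 6, 7, 10, 11 or 12 or PFNA replicates 1, 4, 5, 7, 9 or 10 (limma adjusted p up to 0.075). Esr2 was also not called without PFNA replicates 1, 2 and 10 (limma adjusted p = 0.11). Without PFNA replicates 1 and 2 the number called higher was 6. The LH receptor Lhcgr (-0.41) and the cholesterol carrier Star (0.39) were not called in any setting, and the activin subunit Inhba (-0.31) was called with the oocyte marker share as a covariate alone.

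Nuclear receptors and their cofactors were called higher in 8 and lower in 3 of 23 cases. These shares were 34.8% and 13%, against 13.3% higher and 16.1% lower over all genes tested. Nr0b1 (DAX1), a repressor of steroid synthesis genes, ranged from 3.67 to 13.8 TPM in controls (median 5.56) and from 6.45 to 48.4 TPM with PFNA (median 16.1), with 8 of 10 PFNA libraries above every control (1.41, SE 0.28, limma adjusted p = 6.6e-04). Nr5a2 (LRH1), an activator of such genes that Nr0b1 can block, ranged from 84.1 to 148 TPM in controls (median 122) and from 65.5 to 97.3 TPM with PFNA (median 82.9), with 5 of 10 below (-0.51, adjusted p = 7.4e-04). The glucocorticoid receptor Nr3c1 had 0.37.

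Some single receptors, guidance molecules and junction genes fell steeply. The shares called lower in their lists were 12.1%, 13.6% and 19.2%, against 16.1% over all genes tested. Adra2a, an adrenergic receptor that, like Drd4, lowers cyclic AMP, ranged from 35.3 to 103 TPM in controls (median 74.5) and from 1.29 to 91.4 TPM with PFNA (median 16.4). For Adra2a 8 of 10 PFNA libraries were below every control (-2.02, SE 0.47, limma adjusted p = 0.0027). Among 33 G protein-coupled receptors tested 8 were called higher and 4 lower, with S1pr2 (1.06) and P2ry1 (0.85) the most raised. Sema3g, a secreted semaphorin, ranged from 139 to 293 TPM in controls (median 265) and from 11.6 to 307 TPM with PFNA (median 31.7). For Sema3g 9 of 10 PFNA libraries were below every control and replicate 1 was above the highest (-2.67, SE 0.40, limma adjusted p = 5.5e-05).

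Lrrn2, a leucine-rich repeat adhesion protein, ranged from 7.2 to 16.9 TPM in controls (median 12.6) and from 1.3 to 3.92 TPM with PFNA (median 3.03). Sema7a, a membrane-anchored semaphorin, ranged from 253 to 431 TPM in controls (median 338) and from 56.2 to 266 TPM with PFNA (median 165). Every PFNA library was below every control for Lrrn2 and 9 of 10 for Sema7a (-1.83 and -1.16, limma adjusted p = 1.9e-07 and 1.6e-04). Flrt2 (0.88), an adhesion protein, and Nrp2 (0.69), a semaphorin receptor, were the most raised. In the list of axon guidance and synaptic adhesion, 7 of 44 were called higher and 6 lower, shares near the background. Gja4, the gap junction protein connexin 37 that joins oocyte and granulosa cells, had -1.82, a call lost with the oocyte marker share as a covariate (adjusted p = 0.16). The desmosome genes were split, with Jup (1.05) and Pkp2 (0.84) higher and Dsp (-1.06) lower, and Cldn3 (-1.45) was lower.

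Collagens and basement membrane genes were called higher in 7 and lower in 2 of 27 cases, with a median of 0.43. The share called in either direction was 33.3%, against 29.4% over all genes tested. By direction 25.9% were higher and 7.41% lower, against 13.3% and 16.1%. Fn1, fibronectin, ranged from 13 to 82.1 TPM in controls (median 25.6) and from 33.8 to 127 TPM with PFNA (median 66), and Lamb1, a laminin chain, ranged from 24.9 to 80.02 TPM in controls (median 45.6) and from 52.2 to 126 TPM with PFNA (median 80.4). The groups overlapped for both, with 2 and 5 of 10 PFNA libraries above every control (1.11 and 0.88, limma adjusted p = 0.0098 and 4.7e-04). Col4a1 (0.97), a main chain of the basement membrane, lost its call without any one of PFNA replicates 4 or 10 (limma adjusted p up to 0.053). Vcan, versican, a proteoglycan of granulosa and cumulus matrix, ranged from 48.3 to 124 TPM in controls (median 80.1) and from 8.08 to 66.3 TPM with PFNA (median 24), with 8 of 10 below every control (-1.68, SE 0.30, adjusted p = 2.3e-04), and Has2, which makes the hyaluronan of that matrix, fell by 0.55 on the log2 scale. Col11a1, a fibrillar collagen chain outside the list, ranged from 1.92 to 5.34 TPM in controls (median 3.8) and from 9.25 to 45.4 TPM with PFNA (median 15.7), and every PFNA library was above every control (2.11, SE 0.24, limma adjusted p = 5.8e-06). Without PFNA replicates 1 and 2 the list's number called higher was 13. Theca genes also differed between libraries, with scores from -0.76 to 0.56 in controls and from -0.62 to 1.13 with PFNA. The contractile genes Tagln (1.47) and Tpm1 (0.96) were called higher, with smooth muscle scores from -0.97 to 0.98 in controls and from -0.01 to 1.51 with PFNA, and their part in the matrix result was not tested.

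Proteases and inhibitors were evenly split, 6 of 29 called higher and 6 lower, with 10 higher without PFNA replicates 1 and 2. In the main fit that is 20.7% each, against 13.3% higher and 16.1% lower over all genes tested. Serpine2, an inhibitor of thrombin and plasminogen activators made by granulosa cells, ranged from 155 to 226 TPM in controls (median 181) and from 57.8 to 162 TPM with PFNA (median 82.9). Htra1, a secreted serine protease, ranged from 115 to 173 TPM in controls (median 139) and from 31.8 to 125 TPM with PFNA (median 55.1). For each, 9 of 10 PFNA libraries were below every control (-1.14 and -1.25, SE 0.13 and 0.17, limma adjusted p = 5.0e-06 and 1.7e-05). Serpina3c, of the same inhibitor family but outside the list, ranged from 18.3 to 49.4 TPM in controls (median 27.9) and from 3.08 to 17.2 TPM with PFNA (median 4.4), with all 10 below (-2.13, adjusted p = 5.8e-06). Prss23 (1.21), a serine protease, was higher. Adamts1, a versican-cleaving protease, had -0.66, a call lost without PFNA replicates 1, 2 and 10 (adjusted p = 0.056).

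Retinoid genes were called higher in 4 of 15 cases by limma and lower in 0 (0 at an unadjusted p under 0.05). That is 26.7%, against 13.3% called higher and 29.4% called in either direction over all genes tested. Adh1, which oxidises retinol, ranged from 10.8 to 35.6 TPM in controls (median 20.6) and from 26 to 254 TPM with PFNA (median 84). For Adh1 9 of 10 PFNA libraries were above every control, with replicate 1 in the control range and replicate 8 highest (2.11, SE 0.29, limma adjusted p = 2.7e-05). Cyp26b1, which degrades retinoic acid, had its highest level in the same replicate 8, at 75.5 TPM, but its call (1.26) was lost without any one of control replicates 2, 3, 7, 8, 9, 10, 11 or 12 or PFNA replicates 2, 3, 4, 5, 6, 8, 9 or 10 (limma adjusted p up to 0.08). Cyp26b1 was also not called with the oocyte marker share as a covariate (limma adjusted p = 0.16). The receptor Rarg had 0.72 and Dhrs3, which reduces retinal, 0.57.

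Circadian clock genes were called higher in 10 and lower in 2 of 16 cases, with a median of 0.32. Nr1d1 (REV-ERB alpha), a repressor of the clock's activating arm, ranged from 15.9 to 24.3 TPM in controls (median 21.6) and from 25.5 to 57.2 TPM with PFNA (median 38.6). For Nr1d1 the lowest PFNA library was above the highest control (0.88, SE 0.12, limma adjusted p = 2.9e-05). The repressors Nfil3 (0.86), Bhlhe41 (0.63), Bhlhe40 (0.55), Per2 (0.37) and Cry2 (0.30) were higher and Ciart (-0.65) and Cry1 (-0.31) lower, while Arntl (0.10), the activator of the clock, was not called. The labels give no time of collection, so a difference in time of day cannot be told apart from PFNA.

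**Figure D4:**
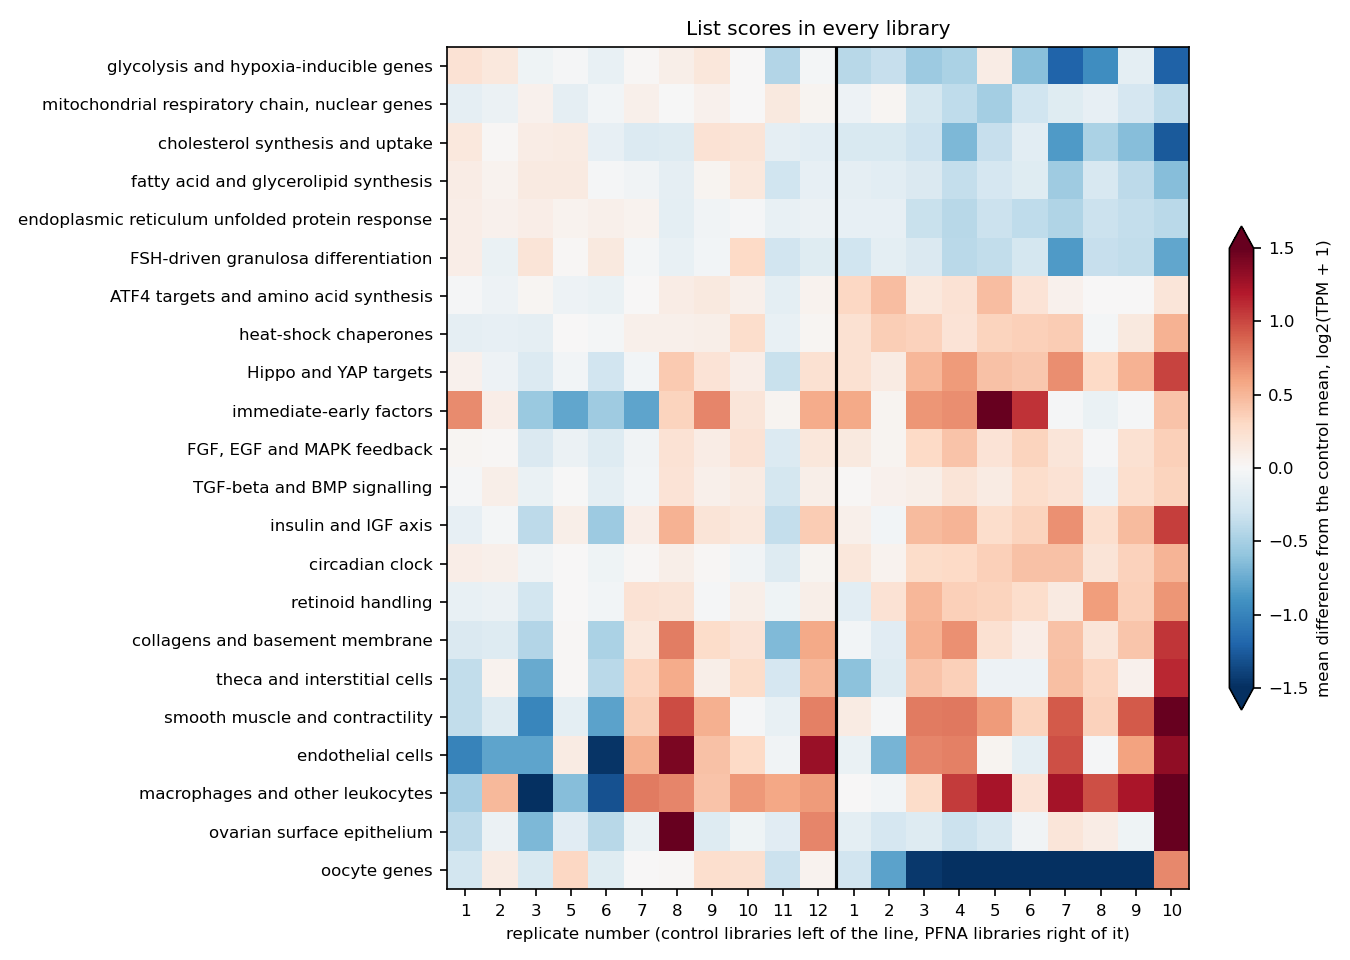
List score (mean difference from the control mean on log2(TPM + 1), colour scale cut at -1.5 and 1.5) for each list in rows and each library in columns, with 11 controls left of the line and 10 PFNA libraries right of it. PFNA replicates 3 to 9 are low in the oocyte row and replicate 10 is not, and replicate 10 is high in the rows of theca, smooth muscle, leukocyte and surface epithelium genes.

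Cytokine and NF-kappaB genes were called higher in 10 and lower in 3 of 34 cases, with a median of 0.33. These shares were 29.4% and 8.82%, against 13.3% higher and 16.1% lower over all genes tested. The chemokine Cxcl1 ranged from 1.9 to 11.9 TPM in controls (median 5.99) and from 7.6 to 30.5 TPM with PFNA (median 16.2), with 6 of 10 PFNA libraries above every control (1.34, SE 0.30, limma adjusted p = 0.002). Genes of macrophages and other leukocytes moved with this list. All 8 tested had a log2 fold change above 0 and 2 were called higher, their list score was -1.86 to 0.78 in controls (median 0.49) and -0.04 to 1.93 with PFNA (median 1.01), with 6 of 10 PFNA libraries above every control, and the sum of 5 leukocyte markers was 2.12 to 81.2 TPM in controls and 32 to 194 TPM with PFNA. Their part in the cytokine counts was not tested. Socs3, a feedback inhibitor of cytokine receptors, had 0.86, Tnfsf11 (RANKL) had 1.09, a call lost without any one of PFNA replicates 3, 5 or 8 (limma adjusted p up to 0.055), and the members most lowered were Lcn2, a carrier of iron-binding molecules (-1.41, not called without PFNA replicates 1 and 2), and Cx3cl1 (-0.76). Tnfsf11 was also not called with the oocyte marker share as a covariate (limma adjusted p = 0.19). Without PFNA replicate 3 the number called higher fell to 6. Interferon and antigen presentation genes went the other way in number, 3 called higher and 7 lower of 27 (11.1% and 25.9%), with Parp14 (0.40) among the raised and Psmb9 (-0.89) and Irf7 (-0.80) the most lowered. Of 14 prostaglandin genes 2 were called higher and 5 lower (14.3% and 35.7%), the lower ones including Ptgis (-0.98), Pla2g4a (-0.87) and Ptges (-0.53). In the vascular list, 5 of 23 were called higher and 2 lower, 30.4% in all against 29.4% over all genes tested. By direction 21.7% were higher and 8.7% lower, against 13.3% and 16.1%. Angpt2, a ligand of the endothelial receptor Tek, ranged from 13 to 46.7 TPM in controls (median 19.8) and from 34.3 to 124 TPM with PFNA (median 90.8), with 8 of 10 above every control (1.79, SE 0.25, limma adjusted p = 2.7e-05), and Vegfb (-0.66) and Angpt4 (-1.13) were lower.

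Wnt genes were called higher in 7 and lower in 2 of 24 cases, the frizzled receptors Fzd4 (0.75), Fzd7 (0.61) and Fzd6 (0.40) among the higher, and the factor Tcf7 (-0.84) and the coreceptor Lrp5 (-0.43) lower. Their shares were 29.2% higher and 8.33% lower, against 13.3% and 16.1% over all genes tested. Chromatin regulators were called higher in 9 and lower in 2 of 38 cases, 28.9% in all against 29.4% over all genes tested. By direction 23.7% were higher and 5.26% lower, against 13.3% and 16.1%. Cbx7 (0.58) and Ezh1 (0.51) were raised and Suz12 (-0.36) and Hdac1 (-0.23) lowered, and without PFNA replicate 2 the number higher rose to 15. Among 78 cytosolic ribosomal protein genes 1 was called, Rps14 (-0.20, adjusted p = 0.018), a call lost after rescaling without mitochondrial-like genes, and 11 were called lower without PFNA replicates 1 and 2. Leaving out any one of 6 single libraries also moved that number, to 2 to 6 (control replicates 1, 3, 5 and 6 and PFNA replicates 1 and 2). Ribosomal protein genes have many pseudogenes that can take their reads.

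The genes with the smallest p outside the usual lists were named by a rule, and 197 genes met its limits, 68 higher and 129 lower. Those higher and not yet described are Myf5, Sox4, Fhdc1, Malat1, Myof and Gdpd2. Myf5, a muscle regulatory factor, ranged from 1.74 to 5.86 TPM in controls (median 3.33) and from 12.6 to 46.8 TPM with PFNA (median 18.4). Every PFNA library was above every control for Myf5 (2.36, SE 0.24, limma adjusted p = 1.9e-06), and likewise for the transcription factor Sox4 (1.15, from a control median of 675 to 1329 TPM), the formin Fhdc1 (1.10) and the nuclear long noncoding RNA Malat1 (1.33, from 1237 to 2954 TPM). Myof, a membrane repair protein, had 1.08 with 8 of 10 above, and Gdpd2, a glycerophosphodiester phosphodiesterase, 1.93 with 9 of 10.

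Of the genes lower by the same rule, Nt5c3b, a nucleotidase, had the smallest p. It ranged from 24.7 to 35 TPM in controls (median 30.1) and from 11.3 to 18.5 TPM with PFNA (median 14.1). Every PFNA library was below every control for Nt5c3b (-1.02, SE 0.08, limma adjusted p = 2.7e-08), and likewise for Slfn9 (-1.72), Bok, a relative of Bcl2 (-1.49), Ly6g6e (-3.07) and the cytokine Mif (-0.88, from 4807 to 2688 TPM). Syt7, a calcium sensor of exocytosis, had -1.87 with 9 of 10 below, and Nap1l5, an imprinted nucleosome assembly gene, -1.70 with 8 of 10 below, from a control median of 6717 to 1875 TPM.

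Within the same rule, which leaves out the usual lists, Gm and Rik names and genes under a mean of 10 TPM in both groups, the 6 largest falls by fold were Elobl (-3.64), Khdc1b (-3.23), Ly6g6e (-3.07), Synb (-3.04), Ccno (-2.98) and Eif4e1b (-2.96). Khdc1b ranged from 34.7 to 80.5 TPM in controls (median 54.5) and from 0 to 150.03 TPM with PFNA (median 3.35). In PFNA replicates 1, 2, 3 and 10 Khdc1b was at 30.4, 31.5, 36.4 and 150.03 TPM, and in 5 PFNA libraries it was listed at 0. Elobl, Ccno and Eif4e1b were also higher in replicates 1, 2 and 10, where the oocyte marker sum was 68.5 to 257 TPM, than in replicates 3 to 9. In replicate 10 they were at 11.4, 27.6 and 7.23 TPM. Khdc1b and Eif4e1b are known from oocytes and early embryos. Khdc1b, Elobl, Ccno and Eif4e1b kept their calls with the oocyte marker share as a covariate. The cause of these falls was not tested.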

How the data were processed

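RNA of ovarian follicles was isolated with a PicoPure kit, and libraries were made from RNA captured on poly-T beads, per the labels' protocols. The submitters' processing notes name Partek, Bowtie2 and HISAT2, with no version or role. The authors deposited 1 table for the maturation window, whose values are TPM (abundances per length and library total) that sum to 1000000 in each library, so depth is unknown and no count test applies. Gene positions matched the mouse GRCm38 annotation for 99.0% of the symbols shared with it.

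Genes whose mean reached 1 TPM (13712) were fitted on log2(TPM + 1) with limma 3.58.1 (R 4.3.3), two-sided, with an intensity trend and robust variances, on 10 PFNA against 11 control libraries and without covariates, and p-values were adjusted by Benjamini and Hochberg over all of them. The test was checked on simulated data. Sums, scores and figures were computed with Python 3.11.15. The column of control replicate 6 was mapped to its sample through a title that differs by a letter.

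The members and the gene lists were chosen with earlier results of these data known. Named genes were, outside the usual PPAR, oocyte and cell-cycle lists, the 12 of each direction with the smallest p, and the 6 of each direction with the largest fold change, among called genes with at least a 2-fold change and a mean of at least 10 TPM in a group. The 4 of each direction with the largest TPM difference, the 4 marker genes and the 2 of each direction with the largest change in each list were added, and further list members were named beside their list's counts. Symbols that are Gm or Rik names, dates or pseudogenes were left out of the rule, and some genes that it names are not reported here. Alternatives were a pseudocount of 0.1, no filter or a mean of at least 5 TPM, 2 other scalings, a simpler variance model, the oocyte marker share as a covariate, the replicate number as a block, and sets of libraries left out. Promoter windows and coordinates are those of RefSeq on GRCm38.p6.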

Additional observations from a re-analysis of the deposited data

Results flagged for a closer look

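Each gene named above and each list score was searched among the 10 PFNA libraries for 1 library standing apart, by the gap to its nearest neighbour divided by the whole range (threshold 0.466). The 11 controls are more than this rule covers and were not searched. Of 284 sets of values 42 passed. About 14.2 would by chance if the values were independent and normally distributed. TPM of related genes and scores from the same libraries need not be, so no excess is read from these numbers. Each library that stood apart was the highest of its group, and the causes were not tested. PFNA replicate 1 stood apart for Acacb at 7.54 TPM (next 3.6), Angpt4 at 2.24 TPM (next 0.967), Ccnd2 at 120.1 TPM (next 60.2), Dgat2 at 11 TPM (next 5.12), Eif4e1b at 18.4 TPM (next 7.24) and Elobl at 39.7 TPM (next 17.1). It also did so for Fgfbp3 at 80.9 TPM (next 48.5), Pla2g4a at 4.12 TPM (next 2.22), Ptgis at 4.89 TPM (next 2.5), Sema3g at 307 TPM (next 134), Serpina3c at 17.2 TPM (next 10.2) and Serpine2 at 162 TPM (next 113). The same library stood apart for Synb at 18.7 TPM (next 7.93) and Syt7 at 19.95 TPM (next 6.73). PFNA replicate 2 stood apart for Cdkn1a at 50.8 TPM (next 29.9). PFNA replicate 5 stood apart for Adamts1 at 232 TPM (next 162), Atf4 at 1516 TPM (next 1171), Ccn1 at 1801 TPM (next 871), Dnajb9 at 141 TPM (next 114), Fos at 2073 TPM (next 775) and Jun at 6634 TPM (next 3935). It also did so for Klf2 at 270.4 TPM (next 174), Pfkp at 42.4 TPM (next 22.5) and Vegfa at 235 TPM (next 125). PFNA replicate 8 stood apart for Adh1 at 254 TPM (next 128), Cyp26b1 at 75.5 TPM (next 30.1) and Insl3 at 199 TPM (next 105). PFNA replicate 10 stood apart for Amh at 27.3 TPM (next 8.36), Dusp6 at 117 TPM (next 78.4), Kcnk3 at 13.3 TPM (next 6.74), Khdc1b at 150.03 TPM (next 36.4), Ldhb at 127 TPM (next 78.6) and Nrp2 at 6.7 TPM (next 3.66). It also did so for Tagln at 61.9 TPM (next 35.3), Tead1 at 8.7 TPM (next 5.32), Tgfb3 at 14.7 TPM (next 7.03), Tiparp at 67.6 TPM (next 53.1), Tpm1 at 203 TPM (next 107) and Yap1 at 25.1 TPM (next 17.7). The same library stood apart for the list score of ovarian surface epithelium at 2.58 (next 0.18), the list score of Wnt signalling at 0.90 (next 0.38) and the list score of cAMP, PKA and cGMP signalling at 0.43 (next 0.18).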

How the results depend on the processing

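Of the 237 genes described or drawn 215 were called. These kept their direction in every setting that tested them. Of the 192 tested in all of them, 162 kept their call throughout, and 23 had too low a mean for the filter at 5 TPM. Rgs10, near the limit of 1 TPM, was tested in 14 of 21 fits that left out a single library. Leaving out any single library in turn gave between 3586 (without PFNA replicate 4) and 4588 (without PFNA replicate 2) genes called, 1456 to 2199 called higher and 2008 to 2423 called lower, 614 to 769 with at least a 2-fold change and 3252 to 4249 outside the usual lists. Without PFNA replicates 1 and 2 there were 5201 calls, 2600 higher and 2601 lower. Without control replicate 6 there were 3659. A pseudocount of 0.1 gave 3999 calls, no filter 4327, a mean of at least 5 TPM 3096, median-ratio size factors 4516 and the simpler variance model 4064. The rescaling without mitochondrial-like genes, which shifted the median log2 fold change of all genes by less than 0.1, lost 6 of the calls described and the oocyte marker share lost 10. No filter on low values lost 12, with adjusted p up to 0.067, namely Amh, Atf6, C1qa, Cd68, Ctsk, Cyp26b1, Eno1, Esr2, Igf2r, Insl3, Plk2 and Slc16a1. Leaving out PFNA replicates 1 and 2 lost 4, a pseudocount of 0.1 lost 2 and leaving out PFNA replicates 1, 2 and 10 lost 9. Leaving out PFNA replicates 1, 2 and 10, which was chosen after seeing the data, as was leaving out each library, gave 4863 calls.

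Control and PFNA libraries share 9 replicate numbers. Libraries with the same number did not deviate from their group means together, with correlations from -0.14 to 0.17, of which 1 of 9 was over 0.1 and 0 of 9 were the library's highest. The labels do not say whether a shared number means a shared animal or culture. These correlations cannot decide it, because the deviations also hold the uneven differences among the PFNA libraries. With the replicate number as a block, over those 9 pairs of libraries, 2891 genes were called, 1855 of them lower, and the number called higher was 1036 against 1824. Of the calls described 21 were lost, with adjusted p from 0.053 to 0.22, namely Atf6, Ccn2, Cldn3, Crebrf, Cyp26b1, Dhrs3, Esr2, Foxo1, Gapdh, Gja4, Gpam, Has2, Insl3, Jun, Nr1h2, Nr3c1, Per2, Plk2, Rrs1, Tgfb3 and Tnfsf11. The block moved 25 of the list counts by over 1.5 times. Among lists with 5 or more calls, the number lower was 22 in place of 38 for the respiratory chain, 3 in place of 7 for cyclic AMP and 3 in place of 5 for junctions. The number higher was 5 in place of 11 for immediate-early factors, 5 in place of 10 for the circadian clock, 4 in place of 9 for lysosome, 5 in place of 8 for nuclear receptors, 4 in place of 7 for both Wnt and axon guidance, 3 in place of 6 for both proteases and ribosome biogenesis, and 2 in place of 5 for both vascular factors and p53 targets.

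Depth is unknown, so the counting error of low genes cannot be estimated, and a value of 0 TPM sets no upper limit.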

Other observations

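Of 33 tested p53 targets and apoptosis genes 5 were called higher and 5 lower, 15.2% each and near the 13.3% and 16.1% over all genes tested, with 3 to 7 in each direction when single libraries were left out. The number higher was 3 without any one of control replicates 1, 2, 3, 6, 10 or 11 or PFNA replicates 6, 7 or 10, and the number lower was 3 without any one of control replicates 3, 8, 9 or 10 or PFNA replicates 3, 4, 5 or 8. Cdkn1a (p21), an inhibitor of cyclin-dependent kinases, ranged from 22.9 to 84.9 TPM in controls (median 47.6) and from 8.54 to 50.8 TPM with PFNA (median 22.5), with 6 of 10 PFNA libraries below every control (-1.08, SE 0.26, limma adjusted p = 0.0032). Gtse1, which restrains p53 in dividing cells, had -1.39, while Perp, a membrane protein of apoptosis and junctions (0.88), and Plk2 (0.72), a stress-induced kinase, were higher, the call of Plk2 being lost without any one of control replicates 1, 2, 3, 6, 7, 10 or 11 or PFNA replicates 1, 3, 4, 6, 7 or 10 (limma adjusted p up to 0.085). In the Notch list 2 of 18 were called higher, and 4 without PFNA replicate 1. They were Hes1, the main target of that pathway (0.85), and Dtx4 (0.62). The cyclic AMP and cyclic GMP list had 7 higher and 7 lower of 33, and 3 or 4 lower without any one of control replicates 1, 2, 3, 5, 10 or 12. The phosphodiesterase Pde7b (0.80) and the cyclase Adcy6 (0.57) were the most raised, and beside Npr2 the most lowered was Rgs10 (-0.50), which shortens G protein signals.

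Lysosome and autophagy genes were called higher in 9 and lower in 4 of 41 cases. Without PFNA replicate 1 the number higher was 19, without replicate 2 it was 15 and without both 19. Ctsk, a collagen-cleaving cathepsin (0.65), and Gabarapl1 (0.62), of the autophagosome membrane, were the most raised, the call of Ctsk being lost without any one of control replicates 1, 2, 3, 5, 6, 7 or 11 or PFNA replicates 3, 4, 5, 7, 8, 9 or 10 (limma adjusted p up to 0.088), and Gla (-0.61) and Naglu (-0.52), glycan-cleaving enzymes, the most lowered. Ion channels were called higher in 6 and lower in 3 of 23, led by the potassium channels Kcnk3 (0.98) and Kcnh2 (0.69) and, among the lower, the chloride channel Ano1 (-0.82) and Trpv4 (-0.60). In ribosome biogenesis 6 of 38 were higher and 3 lower (0 or 1 without any one of control replicates 3, 9, 10 or 12 or PFNA replicates 3, 4, 5 or 8), with Myc and Rrs1 (0.31) the most raised. Zinc and metallothionein genes (1 higher and 2 lower of 16) included the zinc exporter Slc30a1 (0.53). Of 34 cilium genes 2 were higher and 3 lower, and of 9 xenobiotic receptor targets 1 was higher, Tiparp (0.79). Of 16 theca genes 2 were higher, and 4 without PFNA replicate 1. The 2 were Nr2f2 (0.59) and the hedgehog receptor Ptch1 (0.57). The 1 lower, Insl3 (-1.12), lost its call without any one of control replicates 5, 6, 7, 10 or 12 or PFNA replicates 1, 7, 9 or 10 (limma adjusted p up to 0.087). Insl3 was also not called without PFNA replicates 1, 2 and 10 (limma adjusted p = 0.17). Over all genes tested 13.3% were called higher and 16.1% lower. The shares higher and lower were 22% and 9.76% for lysosome genes, 26.1% and 13% for ion channels and 21.2% each for cyclic AMP. They were 15.8% and 7.89% for ribosome biogenesis, 6.25% and 12.5% for zinc and 5.88% and 8.82% for cilium genes. For theca genes they were 12.5% and 6.25%, and for both Notch and xenobiotic genes 11.1% and 0%.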
